A study of Mus musculus with 8 samples.

Results

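Sham-operated livers of Cre-positive and Cre-negative mice were compared, 2 libraries against 2, out of the 8 whole-liver RNA sequencing libraries of the series. The members were taken from the sample titles: sham livers of b-PDGFR fl/fl mice with GFAP Cre +/- (Cre-positive) and sham livers of b-PDGFR fl/fl mice with GFAP Cre -/- (Cre-negative). All mice were of the strain 129S4/SvJae/FVB and 3 months old, and all of them, controls included, carried the floxed alleles. The other 4 libraries came from the same 2 genotypes 72 h after partial hepatectomy and serve here only as a second set of livers in which to look at the same genes. The promoter of GFAP, an intermediate filament gene of astrocytes and stellate cells, drove the Cre, and the labels describe the deletion as one of hepatic stellate cells. The sources used here do not tie libraries to animals, so p-values measure only the spread between these samples. Values joined by "against" are those of the Cre-negative replicates 1 and 2 first and of the Cre-positive replicates 1 and 2 second.

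Platelet-derived growth factor (PDGF) acts through the tyrosine kinase receptors PDGFR-alpha and PDGFR-beta, which signal through the RAS-ERK, PI3 kinase and STAT pathways. Hepatic stellate cells are the pericytes of the liver sinusoid. They store vitamin A when quiescent, and after injury they turn into matrix-producing myofibroblasts, for which PDGF-BB acting on PDGFR-beta is a strong mitogen. The sham comparison asks how the livers of the 2 genotypes differed before any tissue was lost.

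The values are a normalized signal per gene, not counts, and the depth behind them is unknown. In the sham libraries they summed to between 10115900 and 10262000, with 15237 to 15614 genes at a signal of 1 or more. One sham library stood apart: the signal of 277 small nucleolar and Cajal body RNA genes summed to 2912.81, 3385.42 and 3729.85 in both Cre-negative libraries and Cre-positive replicate 1, and to 10539.3 in Cre-positive replicate 2. Of 27 genes listed at 0 in a sham library and at 100 or more in another, 7 were at 0 in Cre-positive replicate 2 alone, among them mt-Co1, mt-Co3, Serpina1a and Serpina1c. Alb, the albumin gene and a defining marker of hepatocytes, was listed at 0 in every sham library although other hepatocyte genes were abundant, so an exact 0 need not mean that a transcript was missing. Of the markers of neighbouring tissues, 9 were tested, 1 higher and 8 lower in Cre-positive livers, with a median log2 fold change of -0.84 and summed signals of 384.2 and 494.1 against 298.5 and 396.2. The pancreatic Prss1 and Prss2, the muscle Myh4 and Ckm and the epidermal Krt5 were at 0 in every sham library, while the elastase genes Cela1 and Cela2a were at 302.0 and 450.1 against 271.0 and 368.7 and at 24.6 and 32.6 against 15.2 and 15.7. The part of such tissue in the results was not tested. The Y-linked genes were alike in the sham libraries (Ddx3y at 606.4, 644.5, 646.2 and 633.9).

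Differences between genotypes were no wider than differences within them. Over the 11698 genes that averaged 10 or more in signal, the median absolute log2 difference was 0.182 between the Cre-negative libraries and 0.169 between the Cre-positive libraries. For the 4 pairs of libraries of different genotype it was 0.178, 0.177, 0.177 and 0.159. Each Cre-negative library thus lay about as far from a Cre-positive library as from its own replicate, and the closest pair of all was Cre-negative replicate 2 with Cre-positive replicate 2. The hepatectomy replicates were wider, at 0.391 for the Cre-negative and 0.638 for the Cre-positive pair.

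**Figure D1:**
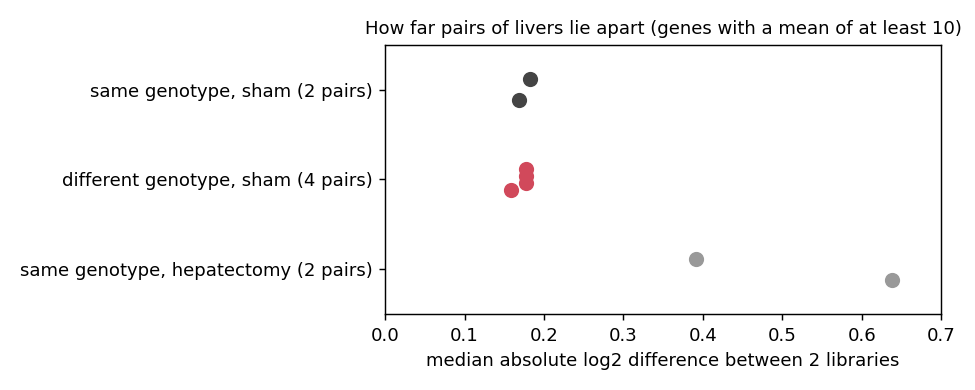
Median absolute log2 difference between 2 libraries (x axis, log2 units, genes that averaged 10 or more), with 1 point per pair of libraries. The 4 sham pairs of different genotype lie between 0.159 and 0.178, the 2 sham pairs of the same genotype at 0.169 and 0.182, and both hepatectomy replicate pairs lie at 0.391 and 0.638.

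Pdgfrb, the targeted gene, did not differ detectably. Its signal was 49.8 and 63.3 against 59.4 and 46.0 in sham, and the groups overlapped fully. The means were 56.5 ± 9.54 and 52.7 ± 9.53 (SD, n = 2 libraries a group), a log2 fold change of -0.10 (SE 0.21, 95% interval -0.67 to 0.47, adjusted p = 0.999 by limma). Without Cre-negative replicate 2 the log2 fold change was 0.07, and without Cre-positive replicate 2 it was 0.08. Nearly all of the signal lay in the isoform Pdgfrb-001 (49.5, 63.0, 59.2 and 45.9), with 0.31, 0.28, 0.26 and 0.10 in Pdgfrb-002. The sources used here do not say which part of the gene is floxed, and a signal over the whole gene does not check a deletion of part of it, so the genotype is taken from the labels. In RNA of whole liver, fewer cells of a type and less RNA per cell cannot be told apart.

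Gfap, whose promoter drove the Cre, was at 3.57 and 2.92 against 0.749 and 1.04 in sham. Both Cre-positive values were lower, with a log2 fold change of -1.16 (SE 0.28) that did not pass the adjusted test (adjusted p = 0.999 by limma). In the hepatectomy livers Gfap was at 7.35 and 4.66 against 0.189 and 3.04, again without overlap. These are among the lowest signals discussed here.

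Of the PDGF ligands and receptors, 7 genes were tested, with 3 higher and 4 lower in Cre-positive livers and a median log2 fold change of -0.10. Over all genes tested 43.6% were higher and 56.4% lower, with a median of -0.03. The ligand Pdgfa was at 37.1 and 34.1 against 20.5 and 29.6. The sister receptor Pdgfra was at 53.1 and 74.9 against 73.7 and 58.6, with overlap. Among 35 genes of PDGF receptor signalling, 12 were higher and 23 lower. Pik3r1, the regulatory subunit of PI3 kinase that binds activated receptors, was at 659.2 and 684.3 against 510.9 and 525.1 (log2 fold change -0.37, SE 0.09). Src, a kinase recruited by the receptor, was at 9.62 and 9.53 against 16.2 and 11.4. Neither difference passed the adjusted test.

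Across all genes, 1 of 15638 passed an adjusted p of 0.05 (limma with Benjamini-Hochberg adjustment), which is 0.00639%. At an unadjusted p under 0.05 there were 622 genes (3.98%), 240 of them higher (1.53%) and 382 lower (2.44%) in Cre-positive livers. Both Cre-positive values lay above both Cre-negative values for 12.3% of genes and below them for 19.3%. Non-overlap together with a fold change of at least 2 was seen in 306 genes (1.96%), 133 of them higher (0.85%) and 173 lower (1.11%). The typical gene with a mean of at least 10 had an unadjusted 95% interval of 0.43 on either side of its log2 fold change.

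**Figure D2:**
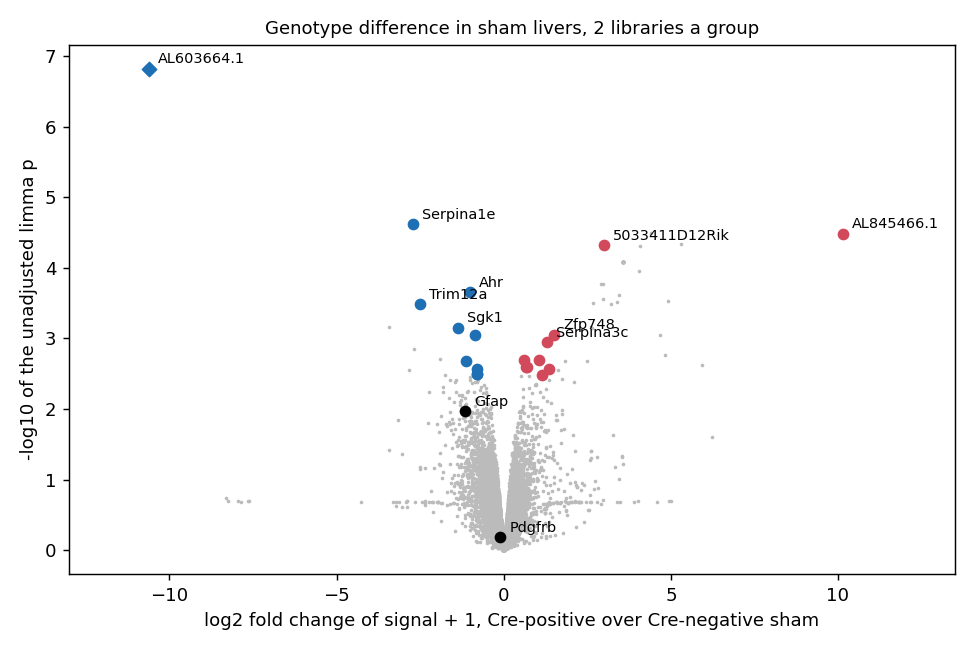
Log2 fold change of signal + 1 (x axis) against the unadjusted limma p on a -log10 scale (y axis) for each of the 15638 genes tested. Coloured points are the genes named in the text (blue lower and red higher in Cre-positive livers), black points are Pdgfrb and Gfap, and the diamond is AL603664.1, which alone passed the adjusted test.

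The gene that passed was AL603664.1, a clone-named locus, and its values did not follow genotype in the hepatectomy livers. Its signal was 1772 and 1402 in the Cre-negative and below 0.01 in both Cre-positive sham livers (adjusted p = 0.00236 by limma). In the hepatectomy livers it was at 0.119 and 0.00103 against 3968 and 0.0225. Its adjusted p was 1 when all 8 libraries were fitted together. Without Cre-negative replicate 1, Cre-negative replicate 2 or Cre-positive replicate 2 it was 0.401, 0.357 and 0.115. A second clone-named locus, AL845466.1, gave the mirror image in sham, below 0.01 in both Cre-negative libraries and at 2050 and 621.7 in the Cre-positive ones (adjusted p = 0.0554), and was below 0.01 in all 4 hepatectomy libraries. In all, 29 genes were below 0.01 in a sham library and at 100 or more in another, and 14 of these were low in 1 library only.

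Several named genes were well separated between the genotypes but missed the adjusted threshold. They were taken as the 10 genes of smallest p in each direction with a mean of at least 10 and no overlap, so their separation is part of how they were chosen. What the choice did not use is their values in the hepatectomy livers, which are given beside most of them.

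Serpina1e, a copy of the alpha-1-antitrypsin family of secreted protease inhibitors, had the smallest p after AL603664.1. It was at 64447 and 67295 against 9343 and 10867 in sham (log2 fold change -2.71, SE 0.15, adjusted p = 0.0554 by limma). The hepatectomy livers ran the other way, at 2212 and 6452 against 19360 and 13242. Both annotated isoforms showed the sham difference, Serpina1e-002 at 58623 in each Cre-negative library and 8866 and 10278 in the Cre-positive ones. The repeated 58623 makes up most of the Cre-negative gene signal. Its exact level is therefore uncertain, and so is the small spread of the Cre-negative replicates behind the SE and p of this gene. In GENCODE M21 transcripts Serpina1e is 96.5% identical to Serpina1a and to Serpina1c over the aligned bases, 96.4% to Serpina1b and 96.2% to Serpina1d, so reads may have been shared between copies and each value is uncertain. Serpina1b, at 47674, 41150, 39247 and 52351, and Serpina1d, at 36904, 31167, 25111 and 31167, did not separate the genotypes. Serpina1a and Serpina1c were at 65297 and 53830 in Cre-positive replicate 1 and listed at 0 in replicate 2. The closely linked Serpina3c, another serine protease inhibitor gene, was higher: 384.2 and 480.4 against 1173 and 946.7 in sham, and 62.8 and 257.5 against 638.1 and 733.7 in hepatectomy. Serpina3c thus kept its direction in the second set of livers, and Serpina1e did not.

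Ahr, the aryl hydrocarbon receptor that induces xenobiotic-metabolizing enzymes, was at 546.7 and 530.9 against 268.1 and 263.5 in sham. The replicates differed by a few percent and the log2 fold change was -1.02 (SE 0.09, adjusted p = 0.127 by limma). After hepatectomy its values overlapped, at 304.5 and 243.3 against 339.5 and 85.9. Sgk1, a serum- and glucocorticoid-inducible kinase, was at 1363 and 1409 against 622.3 and 469.0 in sham (log2 fold change -1.36, SE 0.16, adjusted p = 0.299 by limma). Its hepatectomy values were 607.0 and 677.8 against 416.7 and 445.6, lower in Cre-positive livers in both settings. Trim12a, of the tripartite motif family, was at 21.7 and 25.1 against 2.80 and 3.93 in sham and overlapped after hepatectomy. Abhd1, an alpha/beta hydrolase gene, was at 293.4 and 317.1 against 162.2 and 173.1. Cacna1a, a calcium channel subunit gene, was at 30.3 and 33.2 against 13.8 and 14.1 in sham and at 102.7 and 34.4 against 9.57 and 19.0 in hepatectomy.

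The last 3 genes of the lower group were the clone-named AL928557.1, AC111135.1 and AC154229.1. The first was at 81.4 and 78.7 against 46.6 and 44.1, and the other two were at 81.4 and 76.4 against the same 46.6 and 44.1. Their values were equal in all libraries but Cre-negative sham replicate 2, so they are not independent observations.

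Among the genes higher in Cre-positive sham livers, 5033411D12Rik was at 41.0 and 33.1 against 268.6 and 344.3 (log2 fold change 3.01, SE 0.19, adjusted p = 0.0554 by limma). It overlapped in hepatectomy, at 43.7 and 101.9 against 6.00 and 121.6. Zfp748, a zinc finger gene, was at 10.1 and 11.2 against 33.8 and 30.2 in sham and at 8.42 and 7.34 against 22.1 and 23.3 in hepatectomy. The genotype groups of Zfp748 stood apart in both settings, and its difference of effects between them was -0.09 on the log2 scale (SE 0.45). The isoform Zfp748-201 carried the difference (4.46 and 5.48 against 27.5 and 24.5 in sham), while Zfp748-202 was at 5.63, 5.70, 6.24 and 5.63.

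Eif4ebp3, a translation repressor that binds the cap-binding protein, was at 1572 and 1660 against 2421 and 2544 in sham, with overlap in hepatectomy. Serinc3, a membrane protein gene, was at 2267 and 2553 against 3789 and 3837, and in hepatectomy at 1011 and 1024 against 4554 and 1229. Spg11, needed for lysosome recycling, was at 94.1 and 101.9 against 159.3 and 161.6. Hddc3, at 45.4 and 46.0 against 85.9 and 105.7, Ccdc68, at 25.2 and 36.3 against 75.8 and 80.8, and the peptide transporter gene Slc15a2, at 31.2 and 29.8 against 59.0 and 78.7, completed the group. These last 3 ran the other way after hepatectomy, where both Cre-positive values lay below both Cre-negative values. None of these differences passed the adjusted test.

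**Figure D3:**
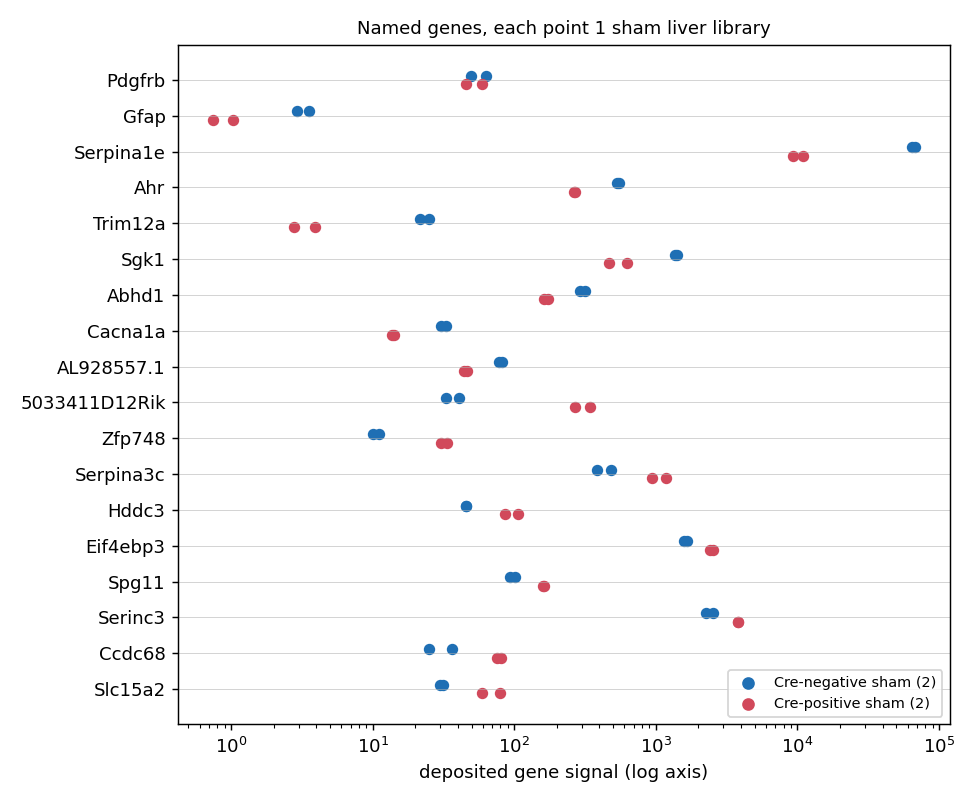
Deposited gene signal (x axis, log scale) of named genes in the 4 sham livers, with 1 point per library. The genotypes are separate for every gene shown except Pdgfrb, which is how the genes below Gfap were chosen.

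Over all genes, the direction seen in sham was compared with that in the hepatectomy livers. Of the 369 genes lower in Cre-positive sham livers at an unadjusted p under 0.05 without overlap or a listed 0, 117 (31.7%) were also lower without overlap after hepatectomy and 48 (13%) were higher. The shares over all genes tested in sham were 25.4% and 14.8%. Of the 200 genes higher in sham, 39 (19.5%) were again higher and 72 (36%) were lower. The 2 sets of livers share no library. Within hepatectomy 0 of 16840 genes passed the adjusted test (0%), with 1327 (7.88%) at an unadjusted p under 0.05. The genotype effect differed between sham and hepatectomy in 2 of 16443 genes (0.0122%), with 1330 (8.09%) at an unadjusted p under 0.05.

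Some of the genes with an unadjusted p under 0.01, no overlap and no listed 0 in sham lie near each other. Of 90 such genes, 72 matched a protein-coding RefSeq gene, and 19 pairs among them lay within 20 gene positions on a chromosome. Serpina1e and Serpina3c had 6 protein-coding genes between them, Zfp748 and Zfp429 had 5, Capn3 and Pla2g4b had 8, and Heatr6 and the lipogenic gene Acaca had 5. Cd59a and Cd59b, complement inhibitor genes, were direct neighbours. The pairs are not independent: 6 of the 19 are among Cacna1a, Mri1, Gadd45gip1 and Klf1, and 3 among Cd59a, Cd59b and Slc1a2. The share of such pairs over all genes was not computed.

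The immediate early and ERK feedback genes formed the list with the most uneven split by sign. These genes are transcribed within minutes of growth factor, stress or cytokine signals, as transcription factors (Fos, Jun, Egr1, Klf2, Klf4), or they dampen the ERK cascade that PDGF receptors activate (Dusp6, Spry4). Of the 31 listed genes 30 were tested, and 28 of these were lower and 2 higher in Cre-positive sham livers, with a median log2 fold change of -0.77 beside -0.03 over all genes. Both Cre-positive values lay below both Cre-negative values for 15 of the 30 (50%), beside 19.3% of all genes, and for none did they lie above. At an unadjusted p under 0.05 there were 7 of 30 lower, beside 2.44% of all genes, and none passed the adjusted test.

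Klf2, a Krüppel-like factor best known in endothelium, was the tightest member, at 51.5 in each Cre-negative library and 29.5 and 29.2 in the Cre-positive ones (log2 fold change -0.79, SE 0.15, adjusted p = 0.874 by limma). Klf4, its relative, was at 25.4 and 17.6 against 11.1 and 9.23. Jun, a subunit of the AP-1 factor, was at 279.8 and 177.4 against 116.5 and 109.2. Maff, a small Maf factor, was at 134.4 and 89.4 against 61.9 and 68.7. In all 4 genes the groups did not overlap.

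Some of the feedback inhibitors followed the same order. Dusp6, the phosphatase of ERK, was at 278.7 and 141.4 against 54.97 and 103.3. Spry4, a Sprouty inhibitor of receptor tyrosine kinase signalling, was at 54.6 and 51.3 against 34.7 and 23.2. Spry2 was at 3.63 and 2.93 against 2.36 and 2.01. The group was not uniform: Dusp4 was at 2.05 and 4.26 against 3.68 and 8.55, and Spred1, Spred2 and Etv5 overlapped with log2 fold changes of -0.01, 0.17 and -0.04. Dusp1, at 397.6 and 270.1 against 118.8 and 450.7, and Dusp5, at 17.0 and 7.79 against 10.5 and 5.29, overlapped too.

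The highest values of the list came mostly from 1 library. Cre-negative replicate 1 held the highest value of 23 of the 30 members, and the summed signal of the list was 7966 there, 3587 in Cre-negative replicate 2 and 3074 and 2425 in the Cre-positive libraries. Egr1, the early growth response factor, was at 971.1 and 230.0 against 176.1 and 88.3. Fos, the partner of Jun in AP-1, was at 617.0 and 123.6 against 23.5 and 96.7. Without Cre-negative replicate 1, 24 of 30 members were lower and the median was -0.26, beside -0.05 over all genes. With each of the other sham libraries left out, 24 to 27 members were lower and the median lay between -1.14 and -0.71.

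Il6, Cxcl2 and Il1b, chosen after their values were seen, were highest in the same library. Il6, the interleukin that primes hepatocytes, was at 105.8 and 13.2 against 6.57 and 1.97. Cxcl2, a neutrophil chemokine, was at 303.1 and 38.7 against 27.2 and 12.2, and Il1b, which stood in the list of neutrophil markers, was at 847.3 and 184.3 against 240.9 and 31.4. The neutrophil marker genes S100a8 and S100a9 were at 301.1 and 298.3 in Cre-negative replicate 1 and lowest, at 54.3 and 42.7, in Cre-positive replicate 2. Of 11 neutrophil markers 9 were lower in Cre-positive livers, with a median of -0.91 and summed levels of 6353 and 9052 against 11203 and 5768. The part of this library and of neutrophil transcripts in the immediate early result was not tested.

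In the hepatectomy livers, which are other libraries, 28 of the 30 members were again lower in Cre-positive livers, with a median log2 fold change of -1.31 beside -0.20 over all genes tested in sham. There 16 of the 30 (53.3%) lay below without overlap, beside 25.4% of all genes, and 11 did so in both settings. The share of all genes that lay below in both settings was not computed, so the 11 have no background beside them. The gene lists were chosen with earlier results of these data known, so the hepatectomy livers are not an independent check of this list. Egr1 was at 1096 and 272.8 against 49.9 and 68.4, Maff at 172.9 and 66.6 against 18.4 and 17.6, and Zfp36, which destabilizes cytokine mRNA, at 1457 and 689.6 against 296.0 and 257.6 (sham 2596 and 1189 against 1091 and 572.6). The list sum was again highest in 1 Cre-negative library, at 7011 in replicate 1 against 3181 in replicate 2 and 1404 and 1842 in the Cre-positive libraries. With each hepatectomy library left out in turn, 23 to 29 members were lower, and the median was weakest without Cre-negative replicate 1, at -0.72 beside -0.17 over the genes tested in sham. Cre-positive hepatectomy replicate 2 stood apart from the other 7 libraries, with the Y-linked Ddx3y at 8.08 beside 410.5 or more, and without it 29 of 30 members were lower (median -1.73).

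**Figure D4:**
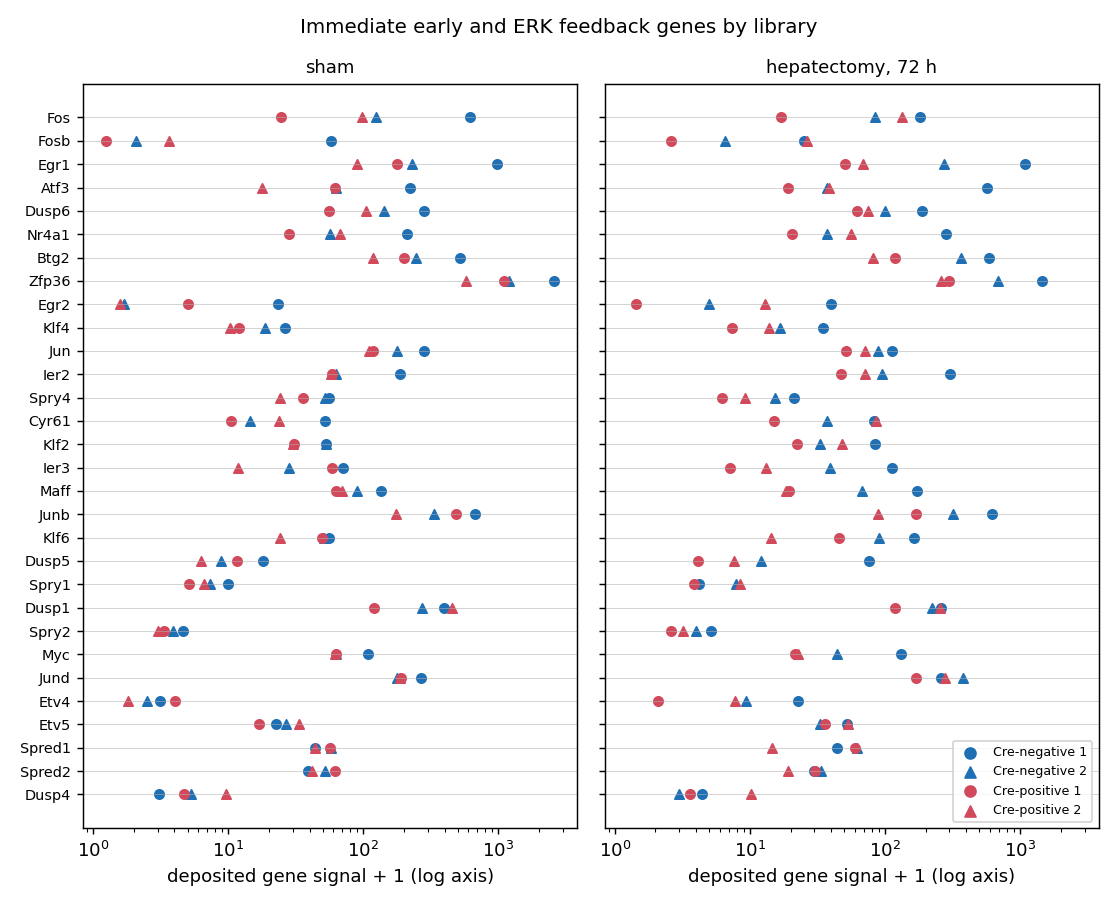
Deposited gene signal + 1 (x axis, log scale) of the 30 immediate early and ERK feedback genes in sham (left) and hepatectomy livers (right), with 1 point per library, ordered by the sham log2 fold change. The Cre-negative libraries (blue) lie to the right for most genes of both panels, and Cre-negative replicate 1 (blue circle) lies farthest to the right for 23 of the 30 genes in sham.

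The promoters of the immediate early and ERK feedback genes were searched for sites of the factors that serve such genes. The window was the 250 bases upstream of the RefSeq start. Members were counted whatever their direction or p in sham, so the counts describe the list and not the genotype difference. The cAMP response element (CRE) TGACGTCA and the shorter core TGACG within it are bound by CREB, TGANTCA is the AP-1 site, and the CArG box is bound by serum response factor. Of the 30 members 23 matched the promoter table. The core, searched on both strands and counted also within the full element, was in 11 of 23 (47.8%), beside 17.9% of all 27025 promoters. The full CRE was in 2 of 23 (8.7% beside 1.62%), the CArG box in 2 (8.7% beside 1.4%) and the AP-1 site in 0 (beside 6.87%). Below, the matched bases are in capitals. Shown are the 3 promoters, from GRCm38.p6, with a match among the members of unadjusted p under 0.05 other than Spry4. They lie at chr8:72318812-72319061 (plus strand) for Klf2, chr4:55532476-55532725 (minus strand) for Klf4 and chr1:134079156-134079405 (minus strand) for Btg2, an antiproliferative gene at 514.4 and 245.5 against 198.1 and 116.4 in sham.
Klf2: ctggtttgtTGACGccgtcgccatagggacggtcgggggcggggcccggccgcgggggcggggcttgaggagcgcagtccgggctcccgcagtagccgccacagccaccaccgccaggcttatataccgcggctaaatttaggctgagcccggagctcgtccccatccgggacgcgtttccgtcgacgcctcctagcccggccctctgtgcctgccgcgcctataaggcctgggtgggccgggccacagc
Klf4: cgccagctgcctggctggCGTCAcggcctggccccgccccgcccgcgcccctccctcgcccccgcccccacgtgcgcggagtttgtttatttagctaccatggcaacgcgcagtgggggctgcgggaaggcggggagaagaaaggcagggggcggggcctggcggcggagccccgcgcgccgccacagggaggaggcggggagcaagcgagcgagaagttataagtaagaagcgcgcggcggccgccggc
Btg2: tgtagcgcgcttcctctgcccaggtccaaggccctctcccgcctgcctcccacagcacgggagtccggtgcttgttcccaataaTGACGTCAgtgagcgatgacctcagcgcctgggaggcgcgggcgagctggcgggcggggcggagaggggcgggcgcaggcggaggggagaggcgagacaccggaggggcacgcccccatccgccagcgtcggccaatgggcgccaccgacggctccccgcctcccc
Klf2 holds 1 core, Klf4 holds 1 on the opposite strand, and Btg2 holds the full CRE. No match to these 4 motifs was in the same window of Jun, Maff or Dusp6. Spry4, also at an unadjusted p under 0.05, was left out of this display, so its window is not described. A match is a description of the letters in the window only.

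Stellate cell markers were split. Of 26 tested, 9 were higher and 17 lower in Cre-positive livers, with a median of -0.13 and summed signals of 6520 and 7286 against 7407 and 5744. Hgf, the hepatocyte growth factor that stellate cells secrete, was at 263.1 and 224.1 against 193.0 and 116.0 and did not overlap, with a log2 fold change of -0.69 (SE 0.28). Lrat, which esterifies retinol for storage, was at 24.6 and 14.9 against 10.7 and 13.9. Dcn, the matrix proteoglycan decorin, was at 1447 and 1824 against 1644 and 1312, and Adamtsl2 was at 54.6 and 92.3 against 93.8 and 94.2.

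Fibrillar matrix and myofibroblast genes were split, 18 higher and 14 lower of 32, with a median of 0.07. Col1a1, the alpha-1 chain of type I collagen, was at 68.8 and 61.6 against 89.6 and 247.7, and Col1a2, its partner chain, at 211.0 and 211.3 against 274.8 and 441.7. Both were highest in Cre-positive replicate 2, and neither passed the adjusted test. Mmp2, a gelatinase, was at 16.4 and 18.0 against 25.1 and 25.2, and Col6a2 at 59.5 and 60.5 against 74.3 and 87.6. On the lower side, S100a6 was at 34.2 and 32.6 against 21.3 and 18.1, and Thbs1, thrombospondin 1, at 167.3 and 37.4 against 15.6 and 31.0. In the hepatectomy livers Col1a1 and Col1a2 were again higher in both Cre-positive libraries, at 316.8 and 357.7 against 481.7 and 1051 for Col1a1 and at 437.0 and 484.4 against 536.5 and 1093 for Col1a2.

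Factors that stellate cells supply to hepatocytes, and their receptors, were 7 higher and 18 lower of 25 (56.4% of all genes were lower), with 3 lower at an unadjusted p under 0.05, beside 2.44% of all genes. Besides Il6 these were Hbegf, a ligand of the EGF receptor, at 16.9 and 8.37 against 5.08 and 3.13, and Vegfb at 80.5 and 87.7 against 64.5 and 48.8. Genes of the TGF-beta and activin pathway were 7 higher and 24 lower of 31 (median -0.19). Inhbe, the activin E chain made by hepatocytes, went the other way at 26.7 and 23.5 against 48.8 and 61.6, and in hepatectomy at 76.5 and 52.5 against 148.4 and 81.0. Id1, a target of BMP signalling, was at 47.2 and 30.3 against 17.8 and 19.3.

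Targets of PPAR-alpha, the fatty acid receptor that turns on fat oxidation, were higher in 29 of 36, with a median of 0.10. Of these, 10 lay above without overlap (27.8%, beside 12.3% of all genes) and 0 below. Cyp4a10, a fatty acid omega-hydroxylase, was at 175.3 and 63.4 against 442.2 and 277.0. Angptl4, an inhibitor of lipoprotein lipase, was at 581.8 and 565.0 against 822.9 and 809.1, Plin2, a lipid droplet coat protein, at 1739 and 1913 against 3526 and 2589, and Acot1 at 58.5 and 40.7 against 115.9 and 77.2. The count was 19 of 36 without Cre-negative replicate 2. In hepatectomy the list was not higher, with 14 of 36 above 0 and Angptl4 at 1290 and 1477 against 855.8 and 1010. There 14 of 36 lay below without overlap (38.9%, beside 25.4% of all genes) and 7 above (beside 14.8% of all genes).

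Fatty acid synthesis genes were lower in 23 of 29, with a median of -0.12 and 8 below without overlap (27.6%, beside 19.3% of all genes). Acaca, which makes malonyl-CoA, was at 732.2 and 784.0 against 559.5 and 520.0, and Fasn, fatty acid synthase, at 1278 and 1440 against 1056 and 1075. Elovl2, an elongase, was at 2622 and 2730 against 2043 and 1703. Pklr, liver pyruvate kinase, was higher instead, at 1184 and 1177 against 1469 and 1369. Leaving out any 1 sham library left 20 or 21 of the 29 lower. After hepatectomy 12 of 29 were lower and 17 higher. Genes of bile acid synthesis and transport were 8 higher and 20 lower of 28, with a median of -0.12 and 8 below without overlap (28.6%, beside 19.3%). Slco1a4, an uptake transporter, was at 852.0 and 675.2 against 515.0 and 561.6. Cyp8b1, the sterol 12-alpha-hydroxylase of cholic acid synthesis, was higher instead, at 359.7 and 227.9 against 487.9 and 439.9.

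Among proliferation genes, the mitotic ones were mostly lower in Cre-positive livers and the replication ones were not. Of 32 genes of G2 and mitosis 26 were lower (median -0.41) and 13 lay below without overlap (40.6%, beside 19.3%), at low signal: the list summed to 256.9 and 320.3 against 238.4 and 214.4. Without Cre-negative replicate 2, 22 of 32 were lower and the median was -0.16. Kif23, a kinesin of cytokinesis, was at 9.93 and 18.0 against 3.41 and 3.88, Top2a at 23.2 and 36.4 against 17.5 and 16.8, and Bub1, a spindle checkpoint kinase, at 4.15 and 3.88 against 1.49 in both. Genes of DNA replication and S phase were higher in 19 of 31 (median 0.08). In the hepatectomy livers, where the list summed to 3042 or more, 17 of the 32 were lower and 15 higher.

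Markers of other cell types followed. Sinusoidal endothelial markers were lower in 26 of 31, but by a median of only -0.11, and in 14 of 31 without Cre-positive replicate 2 and 16 of 31 without Cre-negative replicate 2. Kupffer cell markers were 12 higher and 14 lower of 26, and 0 of them lay above without overlap (beside 12.3% of all genes) and 2 below (7.69%, beside 19.3%). Cholangiocyte markers were lower in 12 of 15 (median -0.34), with Krt19 at 49.0 and 14.5 against 8.67 and 14.4. In sham 5 of them lay below without overlap (33.3%, beside 19.3% of all genes). After hepatectomy 13 of 15 were lower (median -1.35), and 11 lay below without overlap (73.3%, beside 25.4% of all genes). Their summed signal there was not lower, at 1247 and 838 against 2300 and 1237. Chemokines and their receptors were lower in 26 of 29 (median -0.34), a count that was 17 without Cre-positive replicate 2, which held the lowest Cxcl1 (4830 and 4327 against 3586 and 1013). Ccl9 was the member with the smallest p, at 3731 and 4287 against 3244 and 3095.

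Acute phase genes were 19 higher and 13 lower of 32. Saa1, serum amyloid A, was at 24872 and 40634 in Cre-negative and at 78167 in both Cre-positive livers, and the same 78167 recurred in Cre-positive hepatectomy replicate 1, so its exact level is uncertain. Clock genes were lower in 18 of 24: Bhlhe40, a repressor of the clock, was at 1193 and 1104 against 714.0 and 842.9, Rgs16 at 571.2 and 985.1 against 376.9 and 303.9, while Arntl, the activator BMAL1, was at 17.9 and 10.9 against 28.4 and 25.3. The sources used here give no collection times. Cytochromes P450 were 14 higher and 21 lower of 35, with Cyp3a11 at 4210 and 3093 against 2048 and 2445.

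Protein folding genes were split evenly, 17 and 17 of 34. The cytosolic chaperones Hsph1 (882.8 and 697.5 against 361.9 and 450.2) and Hspa8 (6666 and 5481 against 4656 and 4404) were lower. The endoplasmic reticulum genes Sdf2l1 (130.7 and 220.8 against 386.0 and 267.6) and Pdia6 (2705 and 3774 against 5367 and 4366) were higher, but Dnajb9 (198.5 and 149.2 against 124.1 and 125.1) and the sensor Atf6 (287.9 and 347.5 against 254.1 and 234.2) were lower. Rpl30, a ribosomal protein gene, stood out among 79 of its kind at 801.4 and 805.6 against 573.6 and 476.1, and in hepatectomy at 1212 and 1100 against 450.1 and 274.0. Interferon-stimulated genes were 24 higher and 17 lower of 41. Without overlap, 1 lay above (2.44%, beside 12.3% of all genes) and 1 below (2.44%, beside 19.3%).

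**Figure D5:**
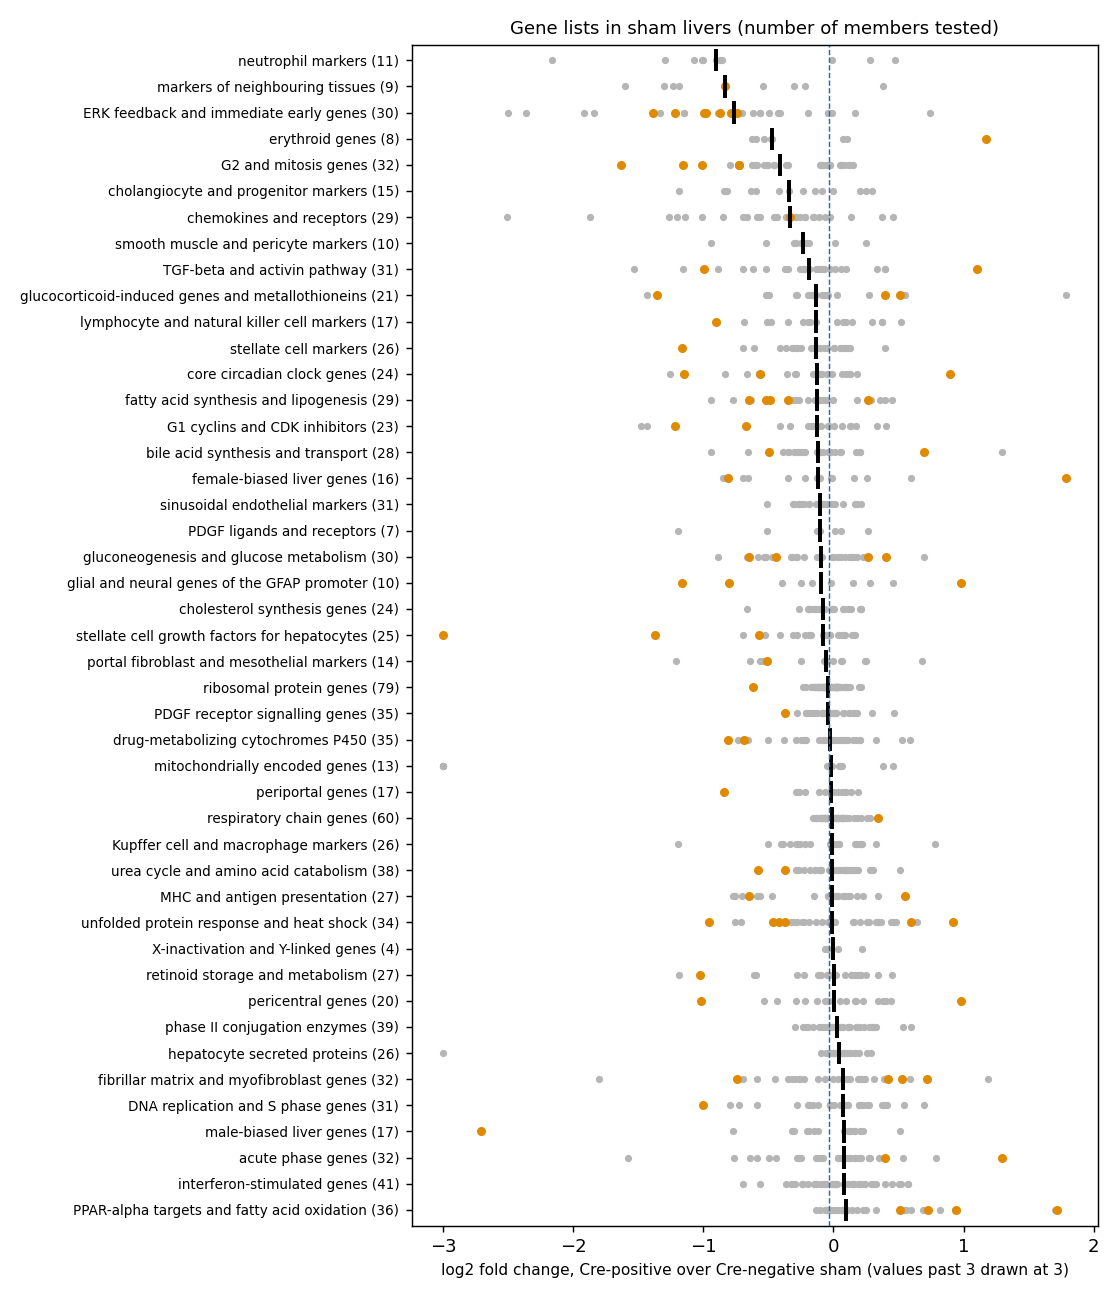
Log2 fold change of signal + 1 between Cre-positive and Cre-negative sham livers (x axis) for each tested member of 45 gene lists, with 1 point per gene (orange at an unadjusted limma p under 0.05), the list median as a black bar and the median of all genes as a dashed line. Most list medians lie close to the dashed line at -0.03, while the neutrophil markers lie at -0.91, the markers of neighbouring tissues at -0.84 and the immediate early genes at -0.77.

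At the level of isoforms 1 of 43749 passed the adjusted test (0.00229%), the single isoform of AL603664.1, and 1916 (4.38%) had an unadjusted p under 0.05. There were 73 isoforms at 10 or more in both Cre-positive and under 1 in both Cre-negative sham livers, and 30 with the reverse pattern. In 69 of both together the gene total stayed within 1.5-fold between the genotypes, so what differed was how signal was split between isoforms. Single replicates split it unevenly too: 1145 isoforms were at 10 or more in one Cre-negative sham library and under 1 in the other, and 784 in the Cre-positive pair. These counts set 1 library against 1, so they are no background for the 73 and 30, which needed both libraries of each genotype.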

How the data were processed

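Total RNA of whole liver was sequenced from TruSeq libraries, per the labels' protocols. The submitters' processing notes name mm9 and NCBIM37 as builds and TopHat and Cufflinks as tools. Versions and normalization are not given there. The authors deposited a normalized signal for each of 34465 genes and 96792 isoforms. It is not a count and carries no depth, so no counting error is given.

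Groups were taken from sample titles. limma 3.58.1 in R 4.3.3 was run on log2(signal + 1), a scale that understates changes of low genes, over the 15638 genes with a mean of at least 1 in the 4 sham libraries (intensity trend, two-sided, Benjamini-Hochberg, threshold 0.05). It was tested on simulated data. The sham libraries were fitted alone because the hepatectomy replicates are wider. The same test was run within hepatectomy, for isoforms, and for the difference of genotype effects over all 8 libraries. Besides Pdgfrb and Gfap, the text names non-overlapping genes past the threshold, filled to 10 a direction with those of smallest p, mean of at least 10 and no listed 0. Per list it names members of largest change and highest mean, with members of unadjusted p under 0.05 added. The test had been written for FPKM and was kept. The members and gene lists were chosen with earlier results of these data known. Promoter sequences are RefSeq's, on GRCm38.p6, and were matched by symbol only.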

Additional observations from a re-analysis of the deposited data

Results flagged for a closer look

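The genotype difference of 2 genes differed between sham and hepatectomy livers by the limma interaction test over all 8 libraries. For AL845466.1 the log2 difference of effects was -10.14 (SE 0.81, adjusted p = 0.0285): it was near 0 in every library except the Cre-positive sham libraries, at 2050 and 621.7. For SCARNA4, a small Cajal body RNA gene, it was -6.86 (SE 0.52, adjusted p = 0.0285). SCARNA4 was at 18.6 and 19.0 against 57.2 and 34.3 in sham, and at 47.4 and 52.2 against a listed 0 in both Cre-positive hepatectomy libraries.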

How the results depend on the processing

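No paired analysis was possible because the titles give each sample its own number, which no 2 groups share. The count of 1 gene called in sham became 23 with quantile normalization or robust moderation, 24 without the intensity trend and 21 with small nucleolar RNA genes left out. Of the 23, 24 and 23 genes, 16 were clone-named rows with one set of values (0 in both Cre-negative libraries). Fitted over all 8 libraries the count was again 1, but the gene was AL845466.1. Leaving out 1 sham library gave 0 to 8 genes, 8 without Cre-positive replicate 1, when mt-Co1, mt-Co3, Serpina1a and Serpina1c rest on their listed 0 in replicate 2. Pdgfrb ranged from -0.28 to 0.081 over the fits without 1 library and reversed to 0.070 and 0.081 without either replicate 2. Isoforms called went from 1 to 0 in the fit over 8 libraries, without the trend and without any 1 library. Non-overlapping 2-fold genes were 306, and 503 with a pseudocount of 0.1, 95 with 10, 115 at a mean of at least 10 and 555 to 762 without 1 library. In hepatectomy, 1 gene was called with quantile normalization and 0 to 11 without 1 library, and genes with differing genotype effects, 2 in all, were 0 to 732 without 1 library, with 732 without Cre-positive hepatectomy replicate 1. List counts moved over 1.5 times for PPAR-alpha targets (19 to 32 higher without 1 library), chemokines (17 to 27 lower) and endothelial markers (14 to 29 lower). The cause was not tested. Median-of-ratios scaling left 51.5% and quantile normalization 50% of genes lower, against 56.4%. With these scalings 27 and 26 of 30 immediate early genes were lower. Of 293 values recomputed for named genes other than Pdgfrb, 281 kept direction and side of the threshold and 0 reversed. The sham groups of these genes do not overlap, so leaving out 1 library could not reverse their direction. All of them but AL603664.1 lay above the threshold in the main fit, so keeping that side says little. Where an arm held 1 library, it was assumed to vary like the other group. Depth is unknown, so its limit cannot be stated.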

Other observations

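The genes below the mean of 10 that were required for naming include Capn3, a calpain chosen here after its values were seen, at 0.9 and 0.9 against 14.6 and 11.8 in sham. Slc1a2, a glutamate transporter of astrocytes that hepatocytes around the central vein also express, stood in the list of glial genes and was at 726.5 and 524.0 against 1179 and 1253 in sham. In the hepatectomy livers Slc1a2 was at 310.0 and 213.4 against 313.7 and 521.9. Ntrk2, a neurotrophin receptor gene in the list of female-biased liver genes, was at 10.8 and 12.6 against 26.1 and 69.5 in sham and at 8.86 and 15.2 against 155.2 and 76.7 in hepatectomy. Fabp7, a fatty acid binding protein of glia, was at 32.9 and 47.8 against 26.3 and 19.0 in sham. None of these genes passed the adjusted test in sham.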
